A study of Arabidopsis thaliana with 12 samples.

Results

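The 100 single-gene probes with the highest mean signal in water-treated Arabidopsis thaliana are described here, together with the signal of each after ascorbate. The plants were wild type, ecotype Columbia 0, in both groups. In the water group, 6 samples had been treated with water for 8 h. In the ascorbate group, 6 samples had spent 4 h in water and 4 more h in 25 mM ascorbate (pH 5.5). Each RNA sample had its own single-channel array, with values for 3439 probes. Neither a tissue nor the pH of the water is stated, and there was no group whose solution was changed to one lacking ascorbate, so ascorbate, the pH, the solute and the change of solution cannot be told apart. The labels do not say whether samples 1 to 6 of a group came from separate plants. The p-values therefore set the difference between the groups against the scatter of these samples alone, and that scatter may be technical.

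Members were chosen by their level in water. The platform annotation gave exactly 1 gene for 692 probes, 10 of which were left out by the selection rule, and the remaining 682 were ranked by their mean deposited intensity over the 6 water samples. The first 100 of these 682 are the members, each for a different gene. The level in water is therefore the selection itself and is given as a description. The ascorbate samples took no part in it. A probe's intensity also depends on the length and labelling of what it captures, so the rank orders probe signals and not numbers of transcripts.

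Vitamin C (ascorbate) is an abundant soluble antioxidant of plants, where it serves ascorbate peroxidases and several dioxygenases and is shared between chloroplast, cytosol, mitochondrion and apoplast. In green plant tissue the most abundant messenger RNAs encode subunits of Rubisco, light-harvesting proteins and other photosynthetic proteins, which belong to families of close relatives. Probes annotated to several genes (870) were not eligible here, nor were those annotated to no gene (1877). Whether this left such photosynthetic genes out was not tested. In the RefSeq gene table (assembly TAIR10.1), 10 of the 100 members carry a gene symbol of their own and 90 only a locus number. The symbols are CCL, CYN, XERICO, AT-HF, CML30, chr31, AILP1, HEMA3, MAMI and Z-ISO. Roles stated below for loci without a symbol are general background and do not come from the files.

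The level in water fell steeply from the first member to the last. The mean deposited intensity, a relative linear scale whose upper end is 100, was over 10 for 9 members, over 5 for 16 and over 2 for 42, and the median member stood at 1.77. Among all 3439 probes the members held ranks between 1 and 516, and 22 of them were among the 100 highest of the whole array. The other 582 ranked probes had a median of 0.372 in water. No member was listed at 0 on any of the 12 arrays, whereas 143 of the other 582 were at 0 on at least 1 array. The lowest value of any member was 0.0763, on ascorbate array 4, for AT4G13680.

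The limit of 100 cuts through closely spaced values. Just inside it, AT1G02260 had a mean of 1.14 in water and Z-ISO, which encodes the zeta-carotene isomerase of carotenoid synthesis, 1.12. Just outside it, AT3G32930 and AT2G20920 both stood at 1.12.

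**Figure D1:**
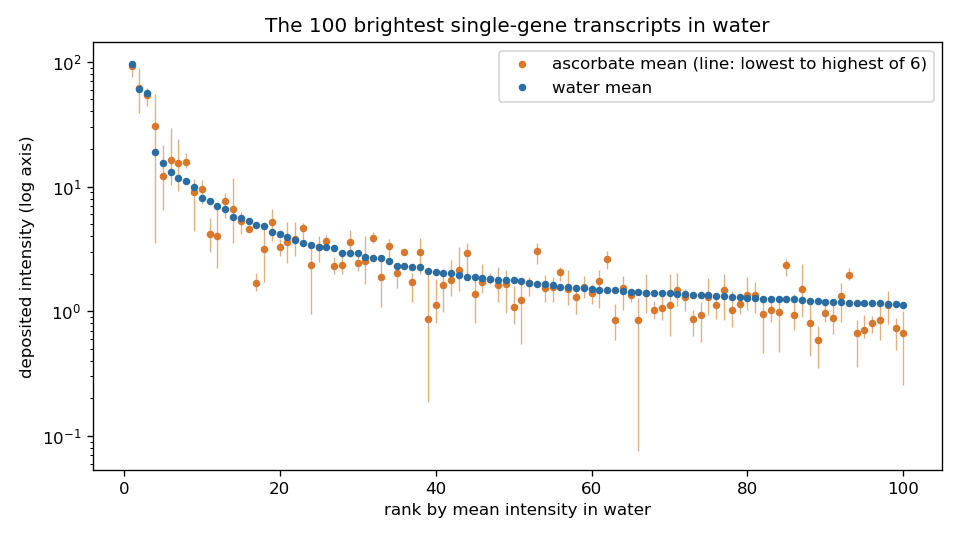
Deposited intensity (log axis) of the 100 members against their rank in water, with the water mean in blue, the ascorbate mean in orange and a line from the lowest to the highest of the 6 ascorbate values. The first 3 members stand far above the rest, and ascorbate means scatter on both sides of the water curve.

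The RefSeq table gives a few further properties of the genes. Median gene length in RefSeq was 2.0 kb for the 100 members and 2.18 kb for the 580 other ranked probes with a length, with quartiles of 1.43 and 2.79 kb against 1.54 and 3.03 kb. A single annotated transcript was listed for 63% of the members and 59.0% of the others, and a gene symbol for 10% and 12.9%. Chromosomes 1 to 5 held 25, 18, 15, 26 and 16 members. For the others the shares were 24.7%, 17.9%, 19.8%, 15.9% and 21.7%, so the members' share was higher on chromosome 4 and lower on chromosomes 3 and 5. These are descriptions with no test.

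The 3 highest members kept their places in ascorbate. In what follows, 3 values in a row for a group are the lowest, the median and the highest deposited intensity of its 6 arrays. AT4G31530 read 85.3 at the lowest, 100 at the median and 100 at the highest of the 6 water arrays, and 75.3, 100 and 100 in ascorbate. It stood at 100, the highest value on any array, on 4 arrays of each group, so a difference above that value cannot be seen. AT4G22830, which encodes a YCF20-like protein, read 52.7, 56.8 and 72.2 in water against 39.1, 58.6 and 88.8 in ascorbate. AT2G27290 read 41.5, 56.6 and 70.3 in water against 44.3, 55.1 and 62.1 in ascorbate. The groups overlapped for all of these. Together these 3 probes held 6.54% ± 0.52 (SD, n = 6) of the summed intensity of an array in water and 6.26% ± 0.68 in ascorbate. Arrays of consecutive number mostly lay close together here, so these SDs do not describe 6 unrelated samples.

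Below them, AT4G17070 and AT1G73120 spread widely within each group. AT4G17070 read 2.99, 18.8 and 33.0 in water against 3.54, 25.4 and 55.2 in ascorbate, and AT1G73120 read 6.77, 14.7 and 24.6 against 6.54, 8.35 and 21.7. For both, samples 1 and 2 were the highest in either group. AT1G16080 read 8.16, 13.1 and 18.04 in water against 10.2, 10.9 and 29.2 in ascorbate, and AT4G19900 5.97, 11.9 and 15.3 against 9.18, 14.7 and 24.2. The groups overlapped for all 4 of these genes.

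AT5G52810, which encodes a reductase that acts in the synthesis of the defence signal pipecolate, stood between 7.40 and 8.83 on water arrays 1 to 4 but at 17.4 and 16.4 on water arrays 5 and 6. In ascorbate all 6 arrays lay between 14.1 and 18.4. It stood at 0.34 ± 0.37 on the log2 scale (SE, adjusted p 0.56 in limma), at 0.77, 0.64 and -0.38 in samples 1 and 2, 3 and 4, and 5 and 6. With arrays centred on their medians it was at 0.99 (adjusted p 0.021), but centring adds 0.39 to the deposited log2 difference of every member. In the other fits described below it did not pass as deposited (limma adjusted p 0.099), with the replicate number as a block (0.29) or with consecutive numbers as a random block (0.74). AT2G46220 read 8.85, 9.72 and 12.4 in water against 4.37, 10.7 and 11.6 in ascorbate, where arrays 3 and 4 were the low ones. CCL, a CCR-like gene known from clock-controlled RNA decay, had a narrow range in water, 7.49, 7.97 and 8.62, and a wider one in ascorbate, 7.24, 10.3 and 11.3. Neither AT2G46220 nor CCL passed the test described next (adjusted p 0.30 and 0.85), with overlapping groups.

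**Figure D2:**
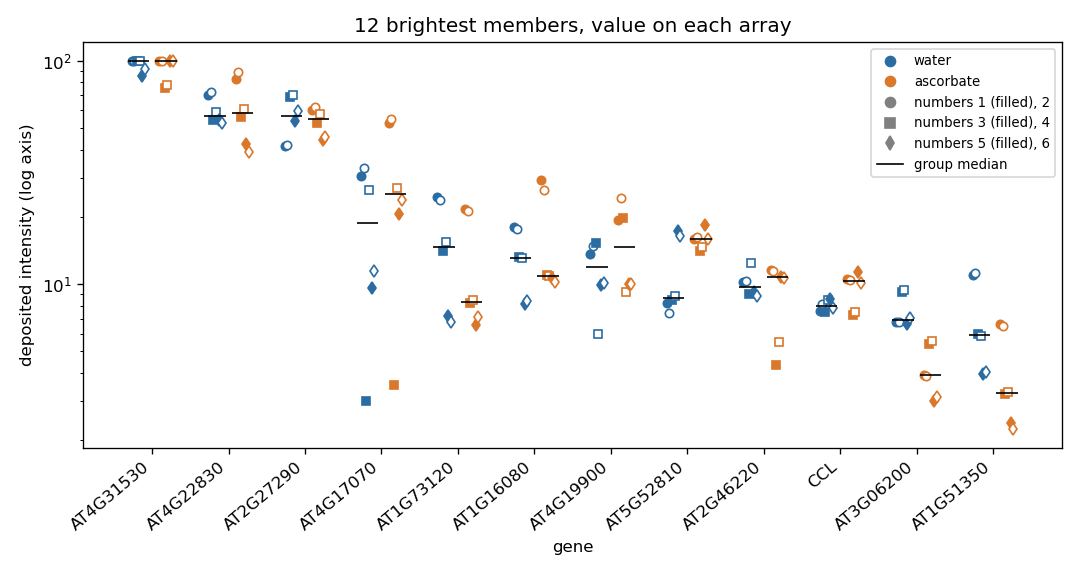
Deposited intensity (log axis) of the 12 members highest in water on each of the 12 arrays, water in blue and ascorbate in orange, marker shapes for samples 1 and 2, 3 and 4, and 5 and 6, and a bar at the group median. Samples of consecutive number lie together for most genes, with sample 3 of AT4G17070 and sample 4 of AT4G19900 apart in both groups.

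To compare the groups, log2 intensities of all probes were quantile normalized and fitted with limma, and 3266 probes were tested with Benjamini-Hochberg adjustment at a threshold of 0.05. Of all tested probes, 17.1% passed. Of the 100 members, all tested, 18 passed, and of the 543 other ranked probes tested, 99 (18.2%). The members' share is thus near the background. By direction, 6 members were higher in ascorbate, against 9.74% of all tested probes, and 12 were lower, against 7.38%. The water values that chose the members also enter this test, so nothing is read from this split. On the normalized scale the 2 groups did not overlap for 4 members that were higher, against 5.57% of all tested probes, and for 5 that were lower, against 4.07%. Ranked by the ascorbate mean instead, the 100 highest probes held 18 that were higher and 7 that were lower. Ranked by the mean over all 12 samples, they held 13 and 10. The median log2 fold change was -0.19 over the members, 0.02 over the other ranked probes and 0.001 over all tested probes. For 70 members the log2 fold change was smaller than 0.5 in size.

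The split also moved with the scaling of the arrays. On intensities as deposited 15 members passed (12.8% of all probes), 6 higher (2.79% of all probes) and 9 lower (10% of all probes). With each array centred on its median 18 passed again (15.2% of all probes), but 17 of them higher (11% of all probes) and 1 lower (4.13% of all probes), and 7 were shared with the 18 of the quantile fit. The median log2 fold change of the members was -0.13 as deposited and 0.26 after centring, where that of all probes was -0.35 and 0.04. Array medians ranged from 0.252 to 0.485 and were lowest on ascorbate arrays 1 and 2, at 0.252 and 0.259. With the 25th percentile of positive values added to all values before the logarithm, 21 members passed (18.8% of all probes), 7 higher (10.3%) and 14 lower (8.45%). Without samples 1 and 2 of both groups, 24 members passed (13.7% of all probes), 6 higher (7.59%) and 18 lower (6.12%). Without water sample 3 the lower members were 7 in place of 12, while over all 3266 probes the lower ones were 167 in place of 241.

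The samples share structure by number, which changes the counts too. Within a group, members differed between consecutive numbers (1 and 2, 3 and 4, 5 and 6) by a median of 4.67% to 7.49%, and between other numbers of the group by 23.0% to 41.6%. With the replicate number as a block, 33 members passed (24.4% of all probes), 8 higher (13.9%) and 25 lower (10.4%), 17 of them among the 18. With consecutive numbers as a random block, 9 passed (4.53% of all probes), 4 higher (2.82%) and 5 lower (1.71%). With consecutive numbers averaged, 3 against 3, limma called 0 members and 1 of all 3266 probes (0.0306%), while 13 members and 501 probes had an unadjusted p under 0.05.

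**Figure D3:**
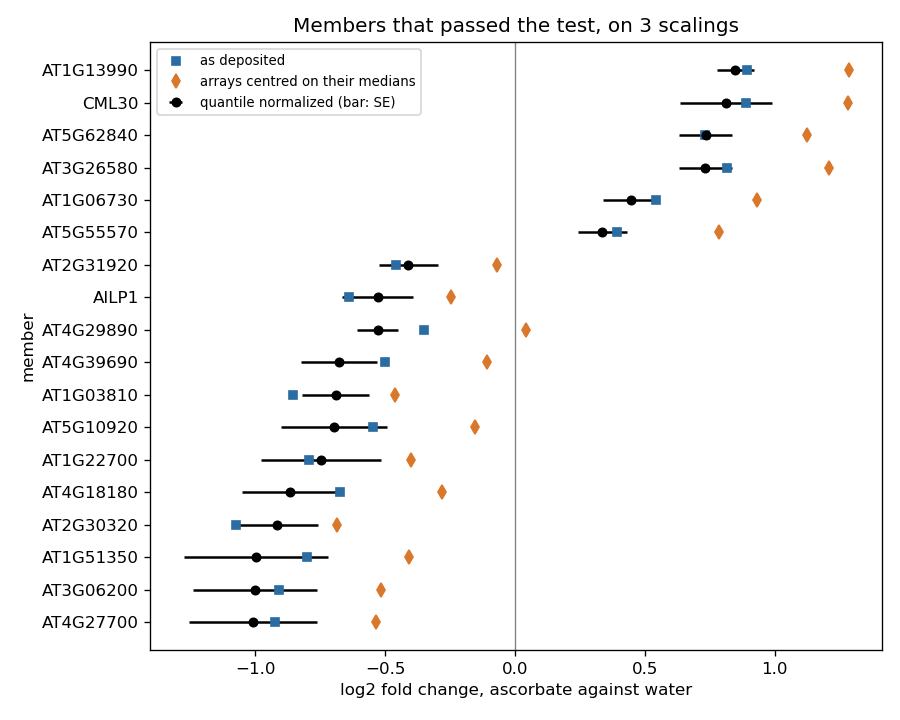
Log2 fold change of ascorbate against water for the 18 members past the threshold, quantile normalized (black, with standard errors), as deposited (blue) and with arrays centred on their medians (orange). Centred values lie to the right of the others for each gene, and AT4G29890 crosses 0.

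On each of these 3 scalings 6 members passed in the same direction, 5 higher (2.66% of all probes) and 1 lower (3.67% of all probes). Centring adds 0.39 to the deposited log2 difference of every member. The demand to pass there favours higher members over lower ones, so nothing is read from this split. The 5 higher ones were AT1G13990, CML30, AT3G26580, AT5G62840 and AT1G06730, and the lower one was AT2G30320. As deposited, the groups of all 6 did not overlap. That held for 6 members in the higher direction, against 2.48% of all tested probes, and for 5 in the lower, against 9.09%.

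AT1G13990 read 1.17, 1.24 and 1.37 in water against 1.92, 2.49 and 2.61 in ascorbate. Every ascorbate array was above every water array, and the 6 water values were among the least variable of all members, with a coefficient of variation of 5.82%. The gene rose 1.80-fold (log2 0.85 ± 0.07 SE, adjusted p 8.0e-05 in limma), and by 0.89, 0.67 and 0.99 in samples 1 and 2, 3 and 4, and 5 and 6. Among the ranked probes it moved from place 85 to 37.

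CML30 encodes a calmodulin-like protein, one of a family of calcium sensors. It read 1.14, 1.70 and 2.15 in water against 2.38, 3.13 and 3.54 in ascorbate, with no overlap. Its rise was 1.76-fold (log2 0.81 ± 0.18 SE, limma adjusted p 0.011), and it measured 0.83, 1.11 and 0.50 over the 3 pairs of samples. Without samples 1 and 2 it was 0.74 and did not pass (adjusted p 0.11).

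AT3G26580 encodes a tetratricopeptide repeat protein, a fold that binds other proteins. It read 1.20, 1.55 and 1.74 in water against 2.17, 2.58 and 3.02 in ascorbate. The groups stood apart, and the gene rose 1.66-fold (log2 0.73 ± 0.10 SE, limma adjusted p 0.0010), by 0.70, 0.88 and 0.63 in the pairs. It moved from place 62 to 32.

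AT5G62840, of the phosphoglycerate mutase family, read 1.05, 1.12 and 1.37 in water against 1.78, 1.87 and 2.23 in ascorbate. It too stood apart, rising 1.66-fold (log2 0.73 ± 0.10 SE, limma adjusted p 0.00094), by 0.54, 0.98 and 0.68 in the pairs, from place 93 to 42. The rises of AT1G13990, AT3G26580 and AT5G62840 were the largest gains of place among the members.

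AT1G06730, a sugar kinase gene of the pfkB type, read 2.27, 2.40 and 3.38 in water against 3.53, 3.83 and 4.32 in ascorbate. Water arrays 1 and 2, at 3.38 and 3.34, were close to ascorbate array 1, while water arrays 3 to 6 lay between 2.27 and 2.41. Its rise was 1.36-fold (log2 0.45 ± 0.11 SE, limma adjusted p 0.016), at 0.02, 0.63 and 0.69 in the pairs, and it did not pass when blocked by replicate number (adjusted p 0.055).

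AT2G30320, of the pseudouridine synthase family of RNA-modifying enzymes, read 1.01, 1.12 and 1.60 in water against 0.348, 0.652 and 0.766 in ascorbate. Every ascorbate array was below every water array. It fell 1.89-fold (log2 -0.92 ± 0.16 SE, adjusted p 0.0034 in limma), or -0.97, -0.50 and -1.29 in the pairs, and it dropped from place 89 to 220, the lowest place of any member in ascorbate. All 6 of these genes lost the call with consecutive numbers averaged, where their adjusted p lay between 0.16 and 0.31, the highest over the alternatives for each. Of the 6, 5 also passed with consecutive numbers as a random block, AT1G06730 being the exception (adjusted p 0.063).

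**Figure D4:**
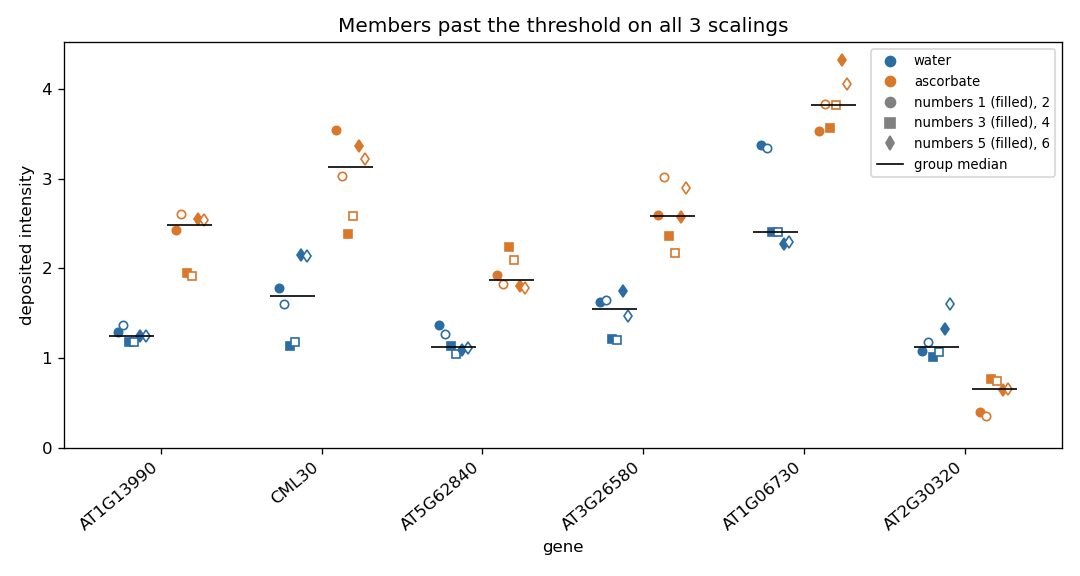
Deposited intensity of the 6 members that passed the test in 1 direction on all 3 scalings, on each of the 12 arrays, with a bar at the group median. For each gene every ascorbate value lies beyond the range of the water values, above it for 5 genes and below it for AT2G30320.

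The sixth member that was higher, AT5G55570, read 1.29, 1.59 and 1.75 in water against 1.76, 2.08 and 2.28 in ascorbate. As deposited the groups only just stood apart. It rose by 0.34 ± 0.09 on the log2 scale (SE, adjusted p 0.032 in limma), and the adjusted p was 0.053 as deposited, within a range of 0.0070 to 0.35 over the alternatives. The call of AT5G55570 was lost in 10 of 20 alternatives.

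None of the other 11 lower members passed after centring, which raises the deposited log2 difference of every member by 0.39. AT3G06200, which encodes a guanylate kinase-like protein, read 6.66, 6.91 and 9.38 in water against 2.98, 3.91 and 5.55 in ascorbate. As deposited its groups did not overlap, and it was 2.0-fold lower (log2 -1.0 ± 0.24 SE, limma adjusted p 0.016, and -0.52 with an adjusted p of 0.19 after centring). AT1G51350, a gene for an armadillo repeat protein, read 3.95, 5.91 and 11.3 in water against 2.24, 3.26 and 6.63 in ascorbate. These ranges overlap because samples 1 and 2 were high in both groups. Within each pair of samples it was lower, by -0.83, -0.87 and -1.30 (limma adjusted p 0.031, and 0.16 as deposited). Its call was lost in 9 of 20 alternatives.

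AT4G27700, for a rhodanese-like domain protein of the chloroplast, read 1.45, 1.90 and 2.76 in water against 0.802, 0.822 and 1.805 in ascorbate. It was 2.01-fold lower (log2 -1.01 ± 0.25 SE, limma adjusted p 0.019, and -0.53 with an adjusted p of 0.36 after centring), in all 3 pairs. AT1G22700, whose tetratricopeptide repeat protein is needed to assemble photosystem I, read 1.11, 1.33 and 2.04 in water against 0.585, 0.796 and 1.15 in ascorbate. On the log2 scale it was lower by -0.75 ± 0.23 (SE, adjusted p 0.047 in limma), at -0.61, -0.79 and -0.84 in the pairs. The call of AT1G22700 was lost in 13 of 20 alternatives, with adjusted p from 0.0028 to 0.42.

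AT4G18180, for a pectin lyase-like protein, read 3.86, 4.18 and 6.51 in water against 1.73, 2.81 and 4.90 in ascorbate (log2 -0.87, limma adjusted p 0.010, and 0.12 as deposited). AT5G10920, for argininosuccinate lyase, the last enzyme of arginine synthesis, read 2.24, 2.59 and 3.13 against 1.09, 1.96 and 2.52 (log2 -0.70, limma adjusted p 0.039), and lost its call in 14 of 20 alternatives, with adjusted p from 0.012 to 0.70. AT1G03810 read 1.02, 1.16 and 1.35 in water against 0.359, 0.701 and 0.856 in ascorbate, with no overlap (log2 -0.69, limma adjusted p 0.0050, and 0.054 after centring).

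The remaining 4 are named after their values were seen. AT4G29890, a choline monooxygenase-like gene, was lower by -0.53 ± 0.08 on the log2 scale (SE, adjusted p 0.0014 in limma), a value that turned to 0.04 after centring. AT4G39690, whose protein shapes the inner mitochondrial membrane, read 2.94, 3.26 and 3.45 in water against 2.0, 2.23 and 2.74 in ascorbate, with no overlap (log2 -0.68 ± 0.15 SE, limma adjusted p 0.0098, and -0.11 after centring). AILP1, an aluminium-induced protein gene, was also without overlap as deposited, at 1.06, 1.44 and 1.59 against 0.636, 0.885 and 1.02 (log2 -0.53, limma adjusted p 0.024, and -0.25 after centring). AT2G31920 stood at -0.41 (adjusted p 0.032 in limma), and at -0.07 after centring. With consecutive numbers as a random block, 7 of the 12 lower members lost the call. They were AT1G51350 (adjusted p 0.077), AT4G18180 (0.051), AT5G10920 (0.14), AT1G22700 (0.12), AT1G03810 (0.089), AILP1 (0.10) and AT2G31920 (0.14). Of the 6 higher members, AT1G06730 and AT5G55570 (adjusted p 0.24) lost it.

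Of the 100 members, 79 were also among the 100 highest ranked probes in ascorbate. All of the first 10 stayed in the first 10, 21 of the first 25 in the first 25 and 42 of the first 50 in the first 50. Across the 100 members the water and ascorbate means had a Spearman correlation of 0.87, a description across genes that share the arrays. Of the 21 members that left, 20 came from places 51 to 100 in water, and 5 were among the 12 lower members. The exception by place was AT3G24190, an ABC1-like kinase gene, which went from 39 to 136. Its place in water rested on array 4, at 6.12, where the other 5 water arrays read between 1.07 and 1.59. In ascorbate, array 4 was again the highest, at 2.11, and the others lay between 0.188 and 0.830. Its log2 difference of -1.07 ± 0.52 did not pass (limma adjusted p 0.19). It passed when blocked by replicate number (adjusted p 0.0098) but not with consecutive numbers as a random block (adjusted p 0.62).

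In place of these 21, 21 other probes entered the 100 highest in ascorbate. The highest were AT2G38550, from place 116 to 44, AT3G04500, from 162 to 63, and AT5G14910, from 115 to 64. Their means went from 1.02 to 1.86, from 0.865 to 1.47 and from 1.04 to 1.46. Since their ascorbate values chose them, no test is given.

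**Figure D5:**
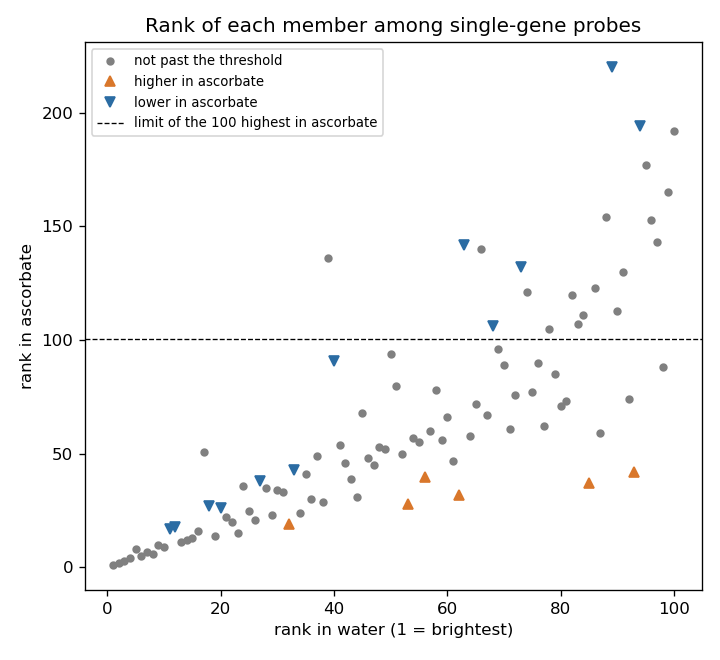
Place of each member among the 682 ranked probes in ascorbate against its place in water, with triangles for the 6 higher and 12 lower members past the threshold and a dashed line at the limit of the 100 highest in ascorbate. The first 10 stay in the first 10, and 21 members lie above the dashed line, that is beyond place 100.

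As a whole the members held 15.3% ± 0.56 (SD, n = 6) of the summed intensity of an array in water, between 14.6% and 16.1%, and 15.0% ± 1.95 in ascorbate. Arrays of consecutive number mostly lay close together, so neither SD describes 6 unrelated samples. The ascorbate arrays were unequal: arrays 1 and 2 stood at 17.5% and 17.6%, above every water array, and arrays 3 to 6 between 13.4% and 14.2%, below every water array. No test was made, because the members were chosen on the water samples.

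By function, 37 of the members could be put in 5 groups from background knowledge, after their values had been seen, and 63 were not placed. The keyword classes planned for this purpose matched 2 members, CML30 and Z-ISO, because the tables hold few descriptions. The counts below stand against 9.74% higher and 7.38% lower among all tested probes, and in groups this small nothing is read from them. Medians are also given after centring, which raised all of them. Each placed member is in a single group. The groups mix place in the cell with function, so none is a full count of its kind. HEMA3 and Z-ISO, for example, encode enzymes but were put in the chloroplast group. This group held 8 members, of which AT4G27700 and AT1G22700 were lower and 6 did not pass. Its median log2 fold change was -0.47, or -0.018 after centring. AT1G76450, for a PsbP-domain protein of the thylakoid lumen, read 4.88, 6.33 and 8.54 in water against 5.63, 8.32 and 8.87 in ascorbate. It was higher in ascorbate in samples 1 to 4 and lower in samples 5 and 6, at 0.61, 0.45 and -0.94 in the pairs (limma adjusted p 0.96). AT5G65220, for protein L29 of the plastid ribosome, stood at 0.22 ± 0.22 on the log2 scale (SE, adjusted p 0.53 in limma). HEMA3, for an isoform of glutamyl-tRNA reductase, which starts tetrapyrrole synthesis, was at 0.07 (adjusted p 0.79). Z-ISO read 0.796, 1.10 and 1.45 in water against 0.257, 0.750 and 1.01 in ascorbate (log2 -0.67, limma adjusted p 0.12, then 0.032 when blocked by replicate number and 0.28 with consecutive numbers as a random block).

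RNA factors were 10 members, of which AT2G30320 was lower and 9 did not pass, with a median of -0.16 that turned to 0.30 after centring. They include 5 genes for pentatricopeptide repeat proteins, which bind organelle transcripts. None of these 5 passed in limma, and 1 had an unadjusted p under 0.05. Of all 3266 tested probes, 1006 had such a p in the same fit, so nothing is read from 1 of 5. The log2 fold changes of these 5 genes lay between -0.51 and -0.13. After centring they lay between -0.16 and 0.34, and 4 of the 5 were above 0. The highest was AT3G26630, at 4.66, 5.86 and 6.22 in water against 4.17, 5.30 and 6.22 in ascorbate. AT1G01080, which encodes an RNA-recognition motif protein, read 11.1 and 11.3 on water arrays 1 and 2 and between 2.66 and 3.45 on the other 4. In ascorbate it read 10.7 and 11.8 on arrays 1 and 2 and between 3.54 and 4.88 on the others, so that it varied by sample number in both groups (log2 0.19, limma adjusted p 0.77).

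The group of metabolism enzymes held 7 members, 1 higher (AT1G06730) and 2 lower (AT3G06200 and AT5G10920), with a median of -0.57. It is not complete, since AT5G62840 (higher), AT4G18180 (lower) and AT4G29890 (lower), given enzyme or enzyme-like names above, were not placed. After centring the median of the 7 was -0.077, and neither AT3G06200 nor AT5G10920 passed. CYN, cyanase, which breaks down cyanate to ammonia and carbon dioxide, had the largest difference of this group without passing. It read 1.48 and 1.49 on water arrays 1 and 2 and between 5.99 and 6.95 on water arrays 3 to 6, but between 1.46 and 2.02 on all 6 ascorbate arrays. The fitted difference, -1.38 ± 0.50 on the log2 scale (SE, adjusted p 0.081 in limma), was 0.10 in samples 1 and 2, -2.0 in 3 and 4 and -2.23 in 5 and 6. AT-HF, of histidine synthesis, stood at 0.17, -0.15 and -1.73 in the pairs (adjusted p 0.16).

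Genes of signalling and gene control were 8 members, 1 higher (CML30) and 7 that did not pass, with a median of 0.09, or 0.48 after centring. XERICO encodes a RING-H2 protein linked to abscisic acid metabolism. It read 2.05, 2.61 and 2.99 in water against 2.72, 3.52 and 3.81 in ascorbate, and was higher in each pair, by 0.36, 0.26 and 0.31. It did not pass (limma adjusted p 0.13), nor with consecutive numbers as a random block (adjusted p 0.32). It did when blocked by replicate number (adjusted p 0.017) and after centring (0.81, adjusted p 0.042). AT4G32060, for a protein of mitochondrial calcium uptake, read 3.0, 3.62 and 3.90 in water against 3.80, 4.84 and 5.15 in ascorbate (log2 0.22, limma adjusted p 0.30, and 0.79 with an adjusted p of 0.027 after centring). AT4G32060 did not pass as deposited (limma adjusted p 0.058), when blocked by replicate number (0.14) or with consecutive numbers as a random block (0.51). AT1G13370, a histone H3 gene, was higher on ascorbate arrays 3 and 4, at 3.30 and 3.29, than on any other array, where it lay between 1.44 and 2.47 (limma adjusted p 1.0).

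Of 4 genes for membranes and trafficking, AT4G39690 was lower and 3 did not pass, with a median of -0.61, or -0.19 after centring. AT1G73430, for a subunit of the conserved oligomeric Golgi complex, read 1.75, 2.25 and 2.96 in water against 2.83, 3.0 and 3.06 in ascorbate (log2 0.31, limma adjusted p 0.083, and 0.79 with an adjusted p of 0.021 after centring). This gene did not pass as deposited (limma adjusted p 0.099), when blocked by replicate number (0.13) or with consecutive numbers as a random block (0.21). AT2G32040, of a folate transporter family, read 0.569 and 0.546 on ascorbate arrays 1 and 2 and between 1.47 and 2.08 on the other 10 arrays (limma adjusted p 0.11). Among the 63 members without a group, 4 were higher and 6 lower, with a range from -1.0 to 0.85 and a median of -0.21 that turned to 0.26 after centring.

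Variation among the water samples differed widely between members. The coefficient of variation had a median of 19.2% in water and 22.9% in ascorbate, against 16.6% and 31.9% for the 439 other ranked probes above 0 on all arrays. The least variable in water were AT4G08940 at 4.35%, AT2G39360, a receptor-like kinase gene, at 5.31% and AT1G13990. AT4G08940 read 1.67, 1.84 and 1.88 in water against 1.65, 1.78 and 2.04 in ascorbate, and AT2G39360 read 1.24, 1.40 and 1.44 against 1.01, 1.30 and 1.52. Both had overlapping groups. The most variable were AT3G24190 at 95.1%, AT1G01080 at 75.2% and AT4G13550 at 74.6%. AT4G13550 read 2.76 and 2.71 on water arrays 1 and 2 and between 0.624 and 0.817 on the other 4, and 2.0 and 1.60 against 0.636 to 0.965 in ascorbate.

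Samples 1 and 2 thus stood more than 2-fold above the mean of samples 3 to 6, in water and in ascorbate alike, for 5 members. These were AT4G17070, AT1G73120, AT1G51350, AT1G01080 and AT4G13550, chosen after their values were seen. Their ratios lay between 2.24 and 3.82 in water and between 2.28 and 2.88 in ascorbate. The labels do not say how the numbered samples were grown, harvested or scanned, and the part of these steps in the differences was not tested.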

How the data were processed

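The authors deposited 1 linear intensity for each of 3439 probes on each array. How it was scanned, background-corrected and scaled is not given in the sources used here. On 9 of 12 arrays the highest value was 100, so the scale is relative. Summed intensity per array ranged from 3054 to 3562, and the number of arrays limits the precision. Each array's low values were lifted to its 1st percentile among positive values. On the log2 scale the array medians then spanned 0.94, more than the 0.3 allowed, so arrays were quantile normalized. Probes that read 0 on every array (173) were dropped, and 3266 were tested with limma 3.58.1 (lmFit, eBayes; R 4.3.3, two-sided, Benjamini-Hochberg, threshold 0.05). Per-array values in the text are deposited intensities. Log2 differences use normalized values unless another scaling is named, and carry limma's standard error. The method was tested on simulated data whose samples were drawn independently of each other. That simulation cannot show how the fit behaves where consecutive numbers resemble each other, as they do here.

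For pairing, the deviations of water and ascorbate samples of equal number from their group means were correlated over the tested probes. All 6 correlations, 0.35 to 0.56, exceeded the limit of 0.1. The numbers, which come from the labels, were taken to pair the samples. The fit without that block had been set as the main one. With the replicate number as a block, consecutive numbers count as independent. The random block and the averages leave out the pairing between the groups. No fit took account of both.

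Alternatives were 2 other scalings, another treatment of low values, blocks and averages over sample numbers, no filter, each sample left out, and other choices of members. Leaving out samples 1 and 2 was added after seeing the data. Members, groups and genes to describe were chosen with earlier results of these data known. Genes were named by a rule: the 12 highest in water, up to 8 highest and 8 lowest fold changes past the threshold with all ascorbate values on 1 side of the water mean, members beside the limit, members of keyword classes, and extremes of variation and of rank change. The rule gave 31 members, and others are named after their values were seen. Gene names come from the platform annotation and RefSeq (TAIR10.1), which matched all 100 members. The genome build behind the array is not stated, and coordinates are left out. Promoter motifs and protein features that had been planned were not analysed here.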

Additional observations from a re-analysis of the deposited data

Results flagged for a closer look

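In 4 of 62 groups of 6 values, each group being a named member in water or in ascorbate, a single sample was remote from the remaining 5. At a share of 5%, about 3.1 such groups would be found if the 6 values of a group were independent. Samples of consecutive number resemble each other, so nothing is read from 4 against 3.1. For AT4G17070 ascorbate sample 3 was at 1.96 normalized log2 intensity against 4.43 to 5.05. For AT4G19900 water sample 4 was at 2.66 against 3.58 to 4.02. For AT3G24190 water sample 4 was at 2.71 against -0.06 to 0.58. For AT5G55570 water sample 5 was at 0.36 against 0.68 to 0.79.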

How the results depend on the processing

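The scaling, the treatment of sample numbers, the choice of members and the loss of water sample 3 (7 lower members) each moved a count by over 1.5 times. Centring turned 6 higher and 12 lower members into 17 and 1. The replicate number as a block gave 33 in all and 25 lower. Consecutive numbers as a random block gave 9 in all and 5 lower, and averaged they gave 0 in all, 0 higher and 0 lower. Members by the ascorbate mean gave 18 higher and 7 lower, and by the mean of all samples 13 higher. With each sample left out in turn, 13 to 18 members passed, 5 to 6 higher and 7 to 12 lower. Over all 3266 tested probes, 396 to 584 passed in these fits, 225 to 319 higher and 167 to 266 lower. The members' share of the summed intensity of single-gene probes was 67.7% in water and 70.4% in ascorbate, and leaving out 1 sample moved the share of all probes to 15.2% to 15.5% in water and 14.5% to 15.3% in ascorbate. Between 76% and 81% of the members stayed among the 100 highest in ascorbate without 1 ascorbate sample.

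The 14 called genes named by the rule kept their direction in all 20 alternatives. The blocks, the averages and the fit without a filter return the log2 difference of the main fit, so its sign could not change there. The rule also asked for ascorbate values on 1 side of the water mean, so nothing is read from the kept direction. AT4G29890, called but not named by the rule, turned from -0.53 to 0.04 after centring. Of the 17 named genes that did not pass, whose direction was not settled by the test, 12 changed sign somewhere. Centring adds 0.39 to the deposited log2 difference of each of the 100 members, so a change of sign there is not particular to a gene, and AT4G31530 was at 100 on 4 arrays of each group. After centring these were AT4G31530 at 0.32, AT4G22830 at 0.37, AT2G27290 at 0.35, AT1G73120 at 0.052, AT2G46220 at 0.16, AT4G08940 at 0.40, AT4G13550 at 0.26 and AT2G39360 at 0.29. AT4G08940 was at 0.0070 as deposited, and without samples 1 and 2 AT1G16080 was at -0.016, AT4G19900 at -0.038 and AT4G13550 at 0.17. With 1 sample left out, AT4G17070 ranged from -0.29 to 0.65, AT1G16080 from -0.065 to 0.14, AT4G19900 from -0.18 to 0.10, CCL from -0.040 to 0.15 and AT4G13550 from -0.26 to 0.19. The causes were not tested.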

Other observations

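Samples 3 and 4, which agreed closely for most members, parted for a few members in the same way in both groups. Deposited values differed more than 1.5-fold between samples 3 and 4 in water and in ascorbate alike for 6 members, higher in sample 3 for AT4G19900 and AT4G13680 and higher in sample 4 for AT4G17070, AT5G36470, AT3G17550 and AT3G24190. No member did so between samples 1 and 2 or between samples 5 and 6. AT4G13680 read 1.40 and 0.149 on water arrays 3 and 4 and 1.15 and 0.0763 on ascorbate arrays 3 and 4. AT4G17070 read 2.99 and 26.3 on water arrays 3 and 4, and 3.54 and 27.0 on ascorbate arrays 3 and 4. AT3G17550 read 1.64 and 3.34 in water and 0.955 and 2.08 in ascorbate on these arrays. These genes were singled out after their values were seen, and the cause was not tested.

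AT3G03890 was close to the threshold. It read 1.22, 1.84 and 2.35 (lowest, median, highest) in water and 2.0, 3.04 and 3.49 in ascorbate. Its log2 fold change was 0.55 with a limma adjusted p of 0.065, and it passed as deposited (adjusted p 0.041), after centring (adjusted p 0.0067) and when blocked by replicate number (adjusted p 0.0077), but not with consecutive numbers as a random block (adjusted p 0.37).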
